A study of Drosophila melanogaster with 384 samples.

Results

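Control neuroblasts of the larval fly brain were ordered by a score that sets genes of DNA synthesis against genes of entry into mitosis, and the cells at the 2 ends of the score were compared. The score of a cell is the mean log2(CPM + 1) of PCNA and RnrS (the S side) minus the mean log2(CPM + 1) of stg, CycB, CycB3 and aurA (the G2/M side), where CPM is counts per 1000000 reads. Of the control cells 12 held under 100000 reads or 1000 genes and 180 were kept, 89 on plate 1 and 91 on plate 2. The third of cells with the highest scores on each plate (29 and 30 cells, called high-score cells here) was compared with the third with the lowest (29 and 30 cells, called low-score cells), 59 and 59 of 384 cells in the series. The cells were chosen by the measured levels of these 6 genes, so those levels are given as a description and the 6 genes are in no count or list value. On plate 1 the low-score group ended at a score of 1.044, with the next cell at 1.054, and the high-score group began at 1.577, with the next cell at 1.563. On plate 2 these scores were 0.468 and 0.494, and 0.869 and 0.862.

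The series holds SMART-Seq2 single-cell RNA sequencing of green-sorted cells from central brains of wandering third-instar Drosophila melanogaster larvae, 6 to 7 days old and reared at 29 °C. Control larvae carried UAS-Dcr2, the neuroblast driver inscGal4, UAS-CD8::GFP and a hairpin against mCherry, sh-mCherry (BL35785), each over a wild-type chromosome. Tumor larvae carried the same UAS-Dcr2, inscGal4 and UAS-CD8::GFP with sh-brat (BL34646), a hairpin against the translational repressor gene brat, in place of sh-mCherry. Cells from 5 pooled control brains filled plates 1 and 2, and cells from 3 pooled tumor brains filled plates 3 and 4. GFP can persist in the daughters of a neuroblast, so the sort need not hold neuroblasts only. Each pool is 1 sample and cells are not replicates, so the comparisons carry no test and no p-value, and the 2 plates of a pool show the visible spread.

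Neuroblasts are the neural stem cells of the fly, and they divide asymmetrically to renew themselves and to bud off a smaller daughter. In S phase a cell fires replication origins that were loaded with helicase in G1, copies its DNA with the polymerases that PCNA clamps to the template, and draws on deoxynucleotides made by ribonucleotide reductase, of which RnrS is the small subunit. In G2 the phosphatase encoded by stg (the fly Cdc25) activates Cdk1, which acts with the cyclins CycA, CycB and CycB3 to start mitosis, while the Aurora A kinase encoded by aurA matures the centrosomes.

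The 6 score genes did not separate the groups evenly. On plate 1 PCNA ran from 104.4 to 3961 CPM with a median of 2269 over the 29 high-score cells, and from 1.12 to 2662 CPM with a median of 1677 over the 29 low-score cells. On plate 2 it ran from 31.5 to 2473 (median 1421) and from 15.6 to 2105 (median 1385). The ranges overlapped on both plates, and summed over cells PCNA was 1.40-fold higher in high-score cells on plate 1 (2248 and 1608 CPM) but 1.03-fold on plate 2 (1443 and 1403 CPM). RnrS was at 533 and 306 CPM on plate 1 and 446 and 275 CPM on plate 2. On the other side, stg stood at 1126 CPM in high-score and 1608 CPM in low-score cells of plate 1 and at 763 and 1344 CPM on plate 2. For CycB the levels were 74.4 and 165.9 CPM on plate 1 and 207 and 360 CPM on plate 2, and for CycB3 they were 687 and 1247, and 843 and 1291 CPM. Aurora A differed less: aurA stood close on plate 1 (114.5 and 127.5 CPM) and apart on plate 2 (77.7 and 123.2 CPM).

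Replication genes outside the score did not bear out a label of S-phase cells for the high-score group. Of 46 measured, 7 were higher and 24 lower in it on both plates. Of all 5864 measured genes 25.0% were higher and 40.3% lower on both. Deoxynucleotide synthesis genes went the other way, with 4 of 7 higher and 1 lower. As a description of the score genes themselves, the 2 sides were high together over cells, with a Spearman rho of 0.236 over 89 cells of plate 1 and 0.421 over 91 cells of plate 2. The G2/M side also followed the number of genes detected in a cell (rho 0.587 and 0.497), and the part of detection was not tested. All cells of a plate share their pool, and plates here are blocks of library names, since the labels name no plates. The score followed the S side with a rho of 0.559 on plate 1 and 0.248 on plate 2, and the G2/M side with -0.525 and -0.676. The G2/M side had a median of 8.06 in high-score cells and 8.80 in low-score cells of plate 1, and 8.23 and 9.03 on plate 2. Values of the 2 sides come from the genes that chose the cells and cannot bear on the label. Because replication genes outside the score were not mostly higher in high-score cells, the groups are named by the score and not by a phase.

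**Figure D1:**
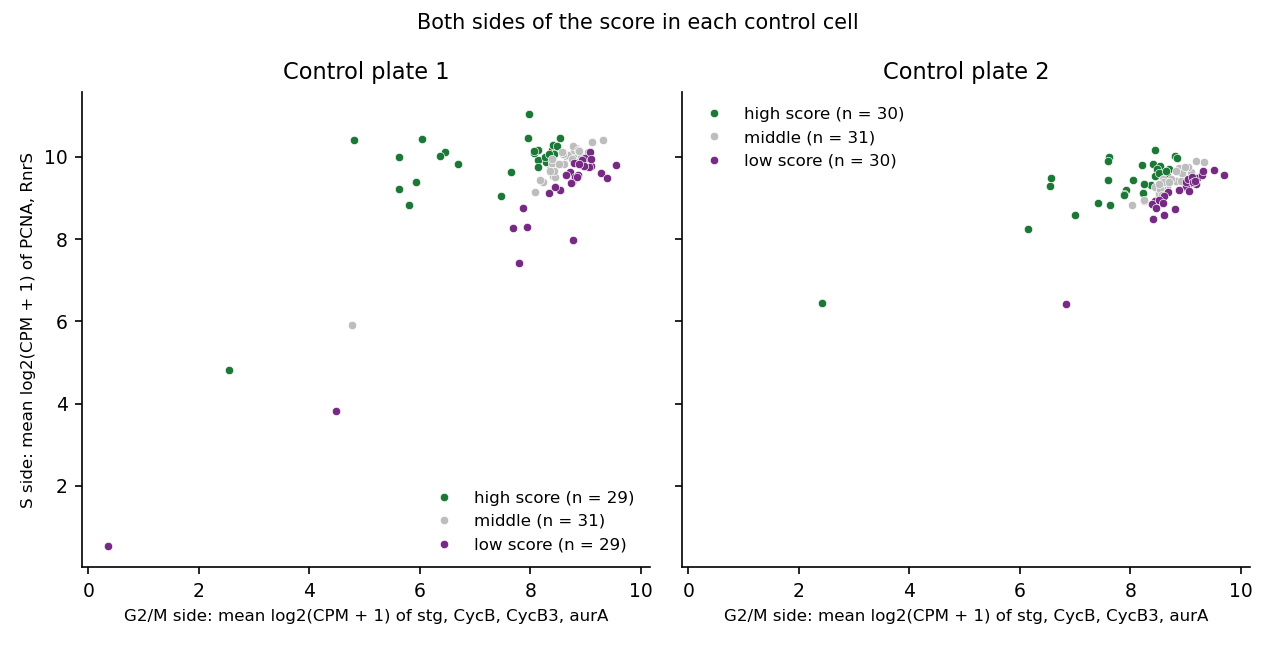
Each point is 1 control cell, with its G2/M side on the x axis and its S side on the y axis, both as mean log2(CPM + 1), on plate 1 (left, 89 cells) and plate 2 (right, 91 cells). Green, grey and purple mark the high-score, middle and low-score groups, and the cloud rises to the right on both plates, with a few cells low on both sides.

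Fewer genes were detected in high-score cells. The median number of genes with a read was 4954 in high-score, 5544 in middle and 5697 in low-score cells of plate 1, and 5910, 6296 and 6308.5 on plate 2. At an equal depth of 100000 reads the medians were 4187 and 4934 on plate 1 and 5073.5 and 5392 on plate 2 for high-score and low-score cells. Over cells the score fell with the number of genes (rho -0.502 and -0.517). Median depth was 1439217 reads in high-score and 1593536 reads in low-score cells of plate 1, and 1349426 and 1530502 on plate 2.

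Gene length went with the ratios as well. From here on a log2 ratio is that of summed reads per 1000000 in high-score over low-score cells of 1 plate. It fell with the exonic length of the gene, with a Spearman rho of -0.418 on plate 1 and -0.370 on plate 2 across 5675 genes, which are not independent. The bin of shortest genes, up to 1186 bases, had median log2 ratios of 0.25 and 0.14, and the bin from 2556 to 4093 bases had -0.40 and -0.25. The score genes share this difference: PCNA and RnrS have 1070 and 1593 exonic bases, while stg, CycB and CycB3 have 3064, 3047 and 2883 (aurA has 1577). The part of detection and of length in the results below was not tested.

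**Figure D2:**
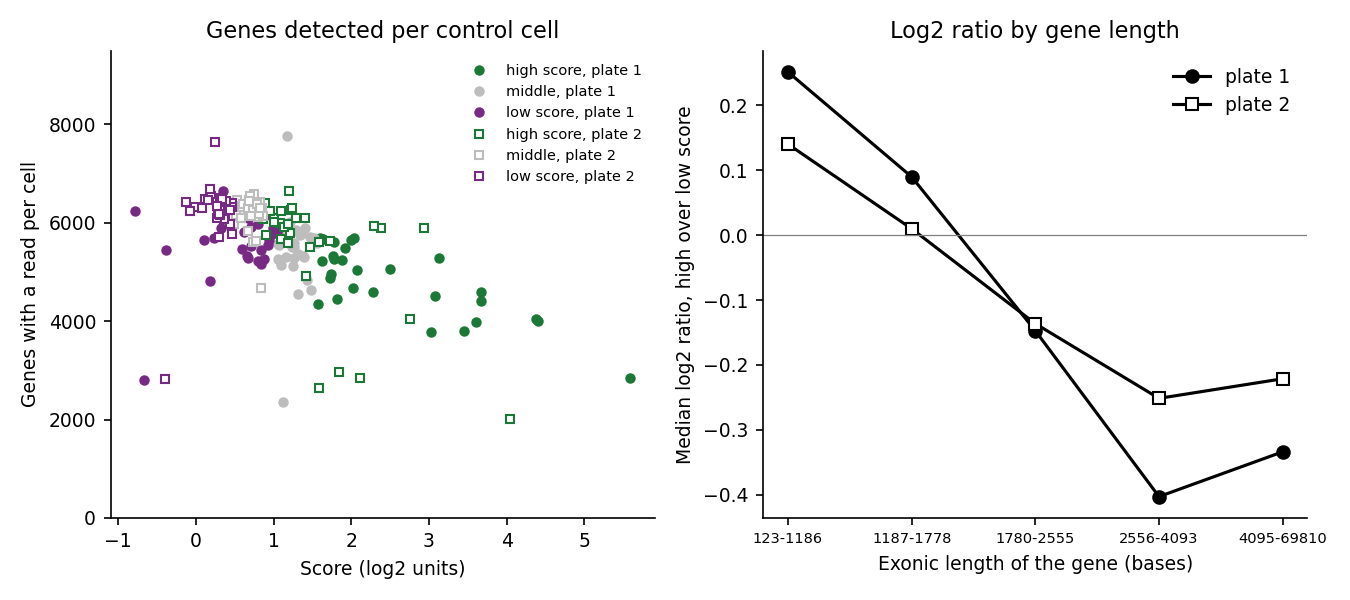
Left, genes with a read per control cell against the score, with filled circles for plate 1, open squares for plate 2 and colors for the groups by score. Right, the median log2 ratio of high-score over low-score cells in 5 bins of exonic length, which falls from 0.25 (plate 1) and 0.14 (plate 2) in the shortest bin to -0.33 and -0.22 in the longest.

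Few genes differed at least 2-fold on both plates. Of 5864 genes with a mean of at least 10 CPM, 9 were at least 2-fold higher in high-score cells on both plates (0.153% of genes) and 31 passed 2-fold in the other direction (0.529%). With TMM scaling the counts were 12 and 21. A further 22 genes passed 2-fold on both plates in opposite directions. On plate 1 alone 2.52% of genes were at least 2-fold higher and 7.09% lower, and on plate 2 alone 1.06% and 1.81%. At any size 1465 genes were higher on both plates (25.0%) and 2361 were lower on both (40.3%), against which the counts per list below are read. The median log2 ratio of all measured genes was -0.09 on plate 1 and -0.08 on plate 2. Across genes the 2 plates' ratios had a Spearman rho of 0.344. High-score and low-score cells differed by a median absolute log2 ratio of 0.36 on plate 1 and 0.24 on plate 2, while the 2 plates differed by 0.49 within high-score and 0.36 within low-score cells.

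Replication genes outside the score did not lie above other genes in high-score cells. Over 46 measured genes of the DNA replication list the median log2 ratio was -0.17 (-0.17 on plate 1 and -0.14 on plate 2), against -0.09 over all genes. None of the 46 was at least 2-fold higher or lower on both plates, and at any size 7 were higher and 24 lower on both. Less the median of genes of like length, the list's median was -0.04 on plate 1 and -0.07 on plate 2.

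Origin licensing genes load the helicase that opens the DNA. Of 14 measured, 2 were higher and 9 lower on both plates, with a median of -0.24. Mcm2, a subunit of that helicase, ran from 1.04 to 719 CPM (median 378) over high-score cells and from 0.56 to 680 CPM (median 443) over low-score cells of plate 1. On plate 2 it ran from 12.4 to 925 (median 363) and from 62.3 to 900 (median 515). Its single-cell ranges overlapped almost fully. Summed over cells it was at 324 CPM (exact Poisson 95% interval 319 to 330) and 459 CPM (453 to 465) on plate 1 and 380 CPM (374 to 386) and 544 CPM (537 to 551) on plate 2, log2 ratios of -0.50 and -0.52. At such levels counting error was small beside the difference between the plates. Mcm5, of the same ring, had -0.25 and -0.32, with 222 and 264 CPM on plate 1 and 251 and 315 CPM on plate 2. The origin recognition subunit gene Orc3 had -0.43 and -0.49. In contrast geminin, which holds back licensing once S phase has begun, had 0.42 and 0.13, at 791 and 591 CPM on plate 1 and 483 and 440 on plate 2. Geminin and PolE4 were picked after their values were seen, as a regulator and a short subunit that went the other way.

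Helicase activation genes, which turn loaded helicases into moving forks, gave 0 of 9 higher and 4 of 9 lower on both plates (median -0.12), among them mus101 with -0.73 and -0.46. Polymerase and fork genes gave 5 of 23 higher and 11 of 23 lower (median -0.12). The catalytic subunit gene of the leading-strand polymerase, PolE1, had -0.67 and -0.86 at 11.9 to 32.4 CPM, Ctf4 had -0.53 and -0.53, and timeout had -0.83 and -0.92 at 3.80 to 19.9 CPM. PolE1, with 6849 exonic bases, and timeout, with 4337, are long genes. The short subunit gene PolE4 (740 bases) had 0.25 and 0.49, so members of 1 polymerase went both ways.

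Of 7 measured deoxynucleotide synthesis genes outside the score 4 were higher and 1 lower on both plates, with medians of 0.31 on plate 1 and 0.13 on plate 2. The lower one was RnrL, the large subunit of ribonucleotide reductase, at 102.4 CPM in high-score and 147.9 CPM in low-score cells of plate 1 and at 200 and 248 CPM on plate 2 (log2 ratios -0.53 and -0.31). Its single-cell medians were 61.9 and 151.8 CPM on plate 1 and 198 and 252 on plate 2. Thymidylate synthase, Ts, had 0.34 and 0.13, but its single-cell median was lower in high-score cells of plate 2 (210 and 250 CPM). The dUTPase gene, which keeps uracil out of DNA, was at 2314 and 1685 CPM on plate 1 and 1471 and 1252 CPM on plate 2. These genes are short (median 1007 exonic bases), and less the median of genes of like length their medians were 0.06 and 0.003. Over all 18 nucleotide supply genes, with purine and pyrimidine synthesis, the median was 0.04, with 7 higher and 6 lower on both plates. The purine enzyme genes bur and Pfas had -1.39 and -0.46, and -0.83 and -0.62, and the one-carbon gene Shmt had 0.82 and 0.51.

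**Figure D3:**
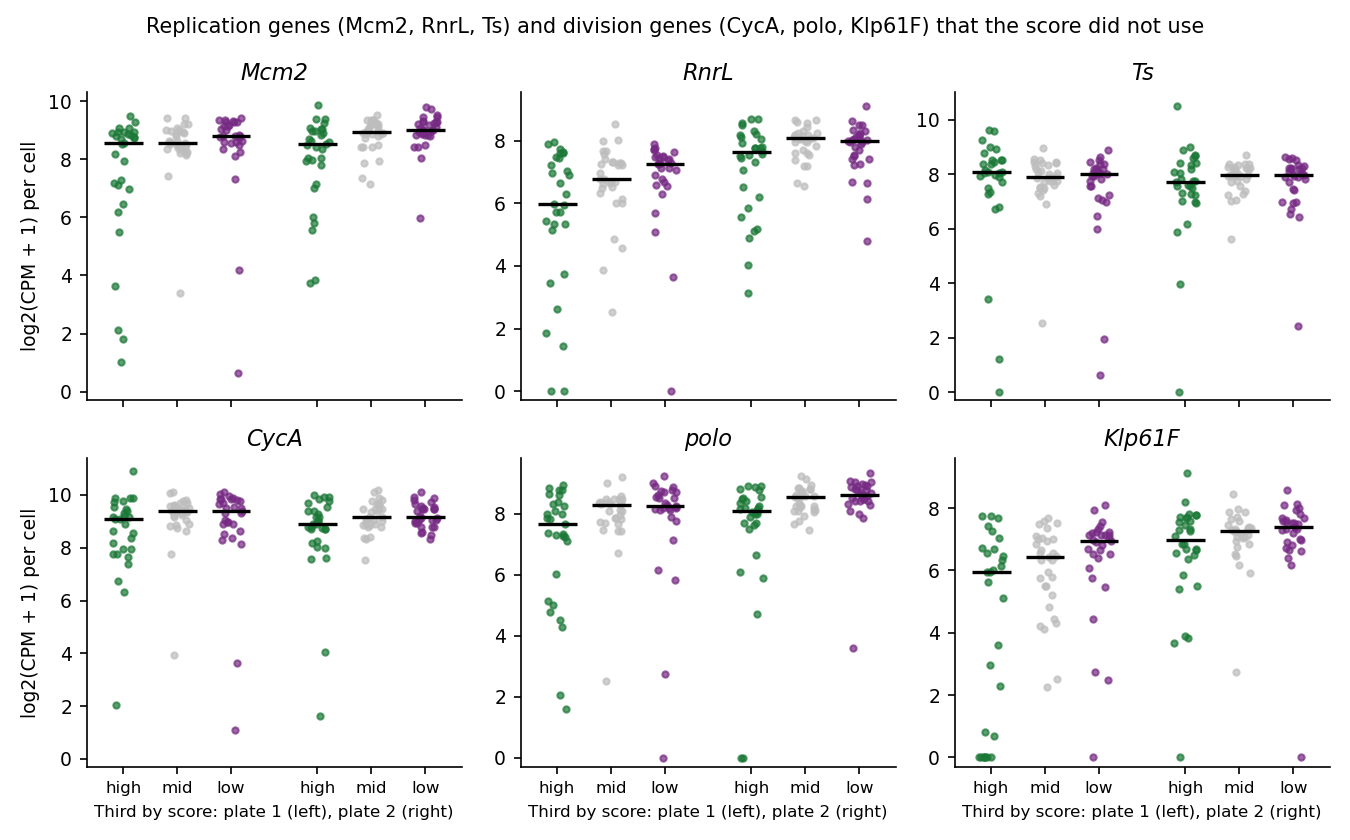
Levels per control cell, as log2(CPM + 1), of 3 replication genes (Mcm2, RnrL, Ts, top row) and 3 division genes (CycA, polo, Klp61F, bottom row) that the score did not use, for the high-score, middle and low-score cells of plate 1 and of plate 2. Black bars are medians, the groups overlap in every panel, and the Mcm2 and polo medians are higher in low-score than in high-score cells on both plates.

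Chromatin assembly genes had a median of 0.05 over 23 genes, with 7 higher and 8 lower on both plates. The large subunit of the chromatin assembly factor that loads histones behind the fork, Caf1-180, was at 92.7 and 92.9 CPM on plate 1, with log2 ratios of 0.00 and 0.11. The FACT subunit gene dre4 had -0.78 and -0.41. The replication-independent variant gene His3.3B had 0.78 and 1.08 in summed reads, at 91.1 and 53.1 CPM on plate 1, while its single-cell medians were close, 52.4 and 54.2 CPM on plate 1 and 49.2 and 44.2 CPM on plate 2. His4r had 0.43 and 0.41.

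Canonical histone messages, which are made in S phase and mostly lack the poly(A) tail that oligo dT priming captures, were inconsistent between plates. Summed over 31 canonical histone IDs, a sum chosen after seeing the data, they were at 1067 CPM in high-score and 1091 CPM in low-score cells of plate 1, and at 2378 and 975 CPM on plate 2. The log2 ratios were -0.03 and 1.29, with H2B at -0.46 and 1.69 and H4 at 0.84 and 0.50. Of the canonical histone list 5 genes were measured (median 0.47), with 3 higher and 0 lower on both plates, and no single-cell median of its H2B members was above 0. Reads of near-identical histone copies can be split among them by counting, so single IDs are uncertain. Over cells the score and the share of reads on these histones had a rho of 0.164 and 0.264.

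The genes that steer the cell cycle differed in both directions. Of 28 measured, 8 were higher and 14 lower on both plates, with a median of -0.16. Cdk2, the kinase of S-phase entry, was at 161.8 and 74.2 CPM on plate 1 and 126.3 and 86.8 CPM on plate 2, log2 ratios of 1.12 and 0.54. Its single-cell medians were 121.6 and 72.7 CPM on plate 1 but 83.5 and 92.8 CPM on plate 2, where the highest high-score cell reached 1147 CPM. Its partner CycE went the other way, with -0.43 and -0.44 at 405 and 550 CPM on plate 2. E2f1, the activator of S-phase genes, had -0.40 and -0.34, and E2f2, the repressing member of that family, had 1.11 and -0.24.

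Among regulators of mitotic entry, Cdk1 was higher in high-score cells, at 399 and 266 CPM on plate 1 and 234 and 197 CPM on plate 2 (0.59 and 0.25). CycA, its partner, was lower, at 523 and 644 CPM on plate 1 and 520 and 640 CPM on plate 2 (-0.30 and -0.30). In summed reads kinase and cyclin went opposite ways for both Cdk1 and Cdk2. Both kinase genes (1082 and 2299 bases) are shorter than the cyclin genes (2919 and 5047 bases), and the part of length was not tested. The bin from 1780 to 2555 bases, which holds Cdk2, had median log2 ratios of -0.15 and -0.14. The inhibitory kinase gene Wee1 had -1.05 and -0.33, and tws, a regulatory subunit of the PP2A phosphatase, had -1.01 and -0.45. DNA damage response genes had a median of -0.15 over 25 genes, with 3 higher and 10 lower, among them the repair helicase gene Blm with -0.92 and -0.60.

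Mitosis genes, summed over the 7 roles below, gave 14 higher and 58 lower on both plates, with 0 at least 2-fold on both. Their median log2 ratio was -0.18 (-0.19 and -0.12), next to the -0.17 of the replication list. Mitosis genes are long (median 2980 exonic bases, 2297 for the replication list and 2134 for all genes with a length), and less the median of genes of like length their median was -0.02 on both plates.

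By role, the genes of mitotic kinases and the chromosomal passenger complex gave 3 of 14 higher and 6 of 14 lower. Polo, which drives centrosome maturation and spindle assembly, ran from 2.00 to 492 CPM (median 202) over high-score and from 0 to 598 CPM (median 305) over low-score cells of plate 1, and summed to 220 and 322 CPM. On plate 2 it summed to 279 and 405 CPM, and its log2 ratios were -0.55 and -0.54. The checkpoint genes BubR1 and mad2 went opposite ways, with -0.62 and -0.54 for BubR1 (4626 bases) and 0.70 and 0.35 for mad2 (818 bases). The share that was lower was larger for the anaphase-promoting complex and its partners, 10 of 13 against 1 higher. There Cdc27 had -0.95 and -0.42 and the activator gene fzy had -0.24 and -0.13, while the securin gene pim, which guards sister chromatids until anaphase, stood at 98.7 and 93.3 CPM on plate 1 and 88.8 and 87.2 on plate 2.

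Spindle and motor genes gave 15 of 23 lower and 3 of 23 higher, with a median of -0.29. Less the median of genes of like length, their medians were -0.12 on plate 1 and -0.03 on plate 2. Klp61F, the kinesin that pushes spindle poles apart, was at 70.6 and 114.9 CPM on plate 1 and 142.5 and 170 CPM on plate 2, and the central spindle kinesin gene Klp3A had -0.88 and -0.54. Cytokinesis genes gave 8 of 14 lower and 1 higher, with -1.29 and -0.62 for the formin gene dia. Centrosome genes gave 8 of 17 lower and 0 higher, condensin and cohesin genes 7 of 15 lower and 3 higher, and kinetochore genes 4 of 11 lower and 3 higher. Both measured tubulin genes were lower on both plates, alphaTub84B by -0.11 and -0.21. Nuclear envelope and import genes gave 13 of 16 lower and 0 higher (median -0.25), and Rcc1, the exchange factor that loads Ran, had -0.29 and -0.48. Less the median of genes of like length, the nuclear envelope and import list had -0.07 on plate 1 and 0.01 on plate 2.

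**Figure D4:**
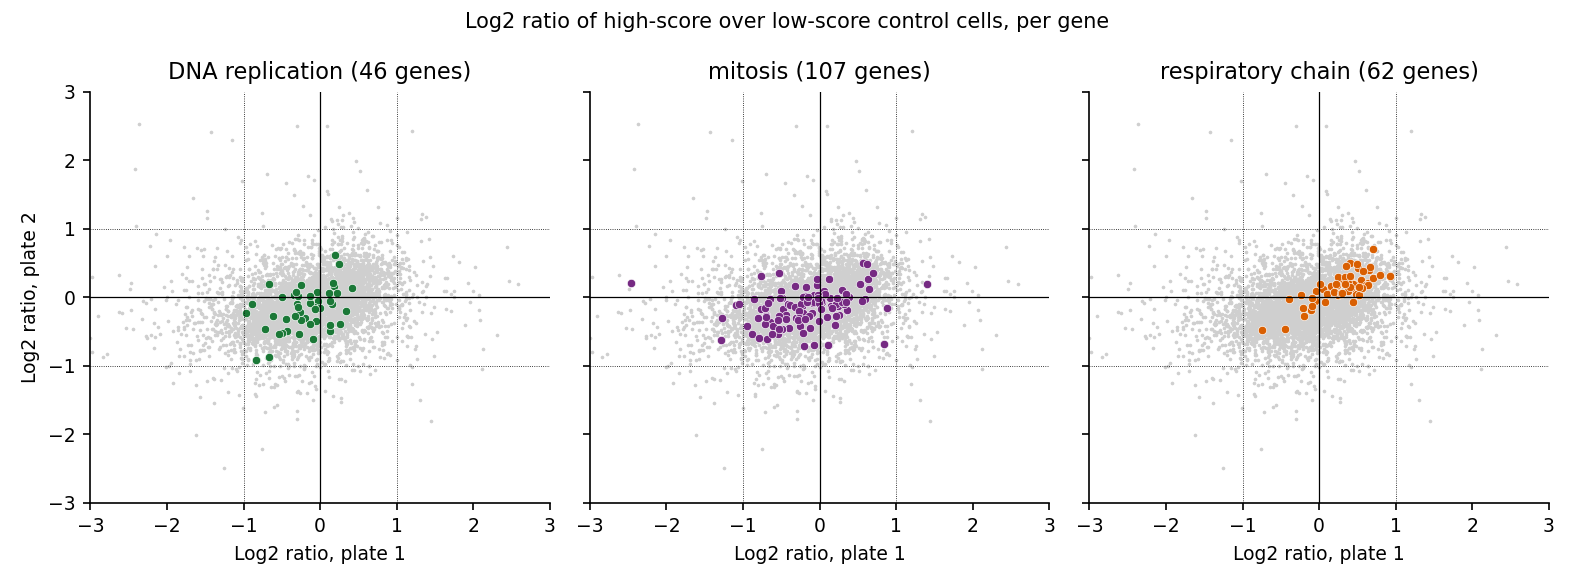
Log2 ratio of high-score over low-score control cells on plate 1 (x axis) and plate 2 (y axis), with 1 point per measured gene in grey and the members of 3 lists in color, and dotted lines at 2-fold. Replication and mitosis genes spread over the same area, mostly below 0, and respiratory chain genes lie mostly above 0 on both plates. Axes end at 3, which leaves out 45 genes.

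Over single cells both lists followed the G2/M side of the score more closely than the S side. The mean level of the replication list followed the G2/M side with a rho of 0.685 on plate 1 and 0.738 on plate 2, and the S side with 0.137 and 0.410. For the mitosis list the values were 0.559 and 0.584 with the G2/M side and -0.075 and 0.191 with the S side. The S side is a mean over fewer genes than the G2/M side. Its genes PCNA and RnrS had a rho with each other of 0.225 on plate 1 and -0.0391 on plate 2. How far this lowered the values with the S side was not tested. Both lists also followed the number of genes detected in a cell, the replication list with 0.843 and 0.500 and the mitosis list with 0.801 and 0.540, and the part of detection was not tested. When cells were ranked by the S side alone, a ranking added after seeing the data, the replication list had a median of 0.21 and the mitosis list -0.04. When they were ranked by the G2/M side alone, low over high, the medians were -0.38 and -0.25.

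Genes of asymmetric division were mostly lower in high-score cells, 13 of 20 against 2 higher, with a median of -0.27. These genes are long (median 5862 exonic bases), and less the median of genes of like length the values were -0.03 on plate 1 and 0.11 on plate 2. The scaffold gene mira, which carries fate factors into the daughter, was at 1011 and 1424 CPM on plate 1 and 1601 and 2075 CPM on plate 2. Brat, one of its cargoes, had -0.29 and -0.42, the polarity gene l(2)gl had -0.36 and -0.31, and stau had -0.52 and -0.28. The adaptor gene insc, which links polarity to the spindle and whose driver labels the sorted cells, went the other way with 0.52 and 0.26.

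Neuroblast identity genes were present in both groups. Dpn, the repressor that keeps neuroblasts self-renewing, had a read in 100% of high-score and low-score cells of both plates, at 735 and 1126 CPM on plate 1 and 745 and 910 CPM on plate 2. The proneural gene ase had -0.91 and -0.18 and wor had -0.41 and -0.25, while the receptor gene N had 0.59 and 0.34. Over 18 genes the median was -0.12, with 6 higher and 7 lower. Notch target genes split by plate (median -0.77 on plate 1 and 0.42 on plate 2 over 8 genes), and 1 was higher and 1 lower on both. Temporal factors gave 2 of 10 higher and 4 lower. Syp, the late RNA-binding factor, stood at 7080 and 7056 CPM on plate 1 and 9237 and 9747 on plate 2, and the ecdysone receptor gene EcR had -0.96 and -0.69.

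Transcripts of the respiratory chain were higher in high-score cells on both plates, by small ratios. Of 62 nuclear-encoded genes 49 were higher and 9 lower on both plates, with medians of 0.35 on plate 1 and 0.17 on plate 2 and none at least 2-fold. Cype, a subunit of complex IV, ran from 257 to 6168 CPM (median 1436) over high-score and from 234 to 6946 CPM (median 1015) over low-score cells of plate 1, and its log2 ratios were 0.71 and 0.70. On plate 2 its single-cell medians were 626 and 551 CPM. These genes are short (median 900 exonic bases), and less the median of genes of like length the list's medians were 0.13 and 0.05. Its 2 clear exceptions among the named members were ND-75 (2634 bases, -0.75 and -0.47) and blw (2252 bases, -0.45 and -0.46), and the part of length was not tested. Over cells the score and the list had a rho of 0.243 on plate 1 and -0.00417 on plate 2.

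The mitochondrially encoded genes had a median of 0.14 over 4 genes, with 2 higher and 0 lower. Cytosolic ribosome genes had a median of 0.03 over 76 genes, with 35 higher and 9 lower on both plates, and less the median of genes of like length their medians were -0.22 and -0.01. Nucleolus and ribosome biogenesis genes had -0.10 over 25 genes, with 6 higher and 14 lower. Glycolysis genes had -0.19 over 11 genes, with 0 higher and 5 lower, and the aldolase gene Ald1 was at 1289 and 1727 CPM on plate 1 and 1023 and 1353 CPM on plate 2. Heat shock and stress genes had the median -0.40 over 17 genes, with 3 higher and 12 lower. Less the median of genes of like length, their medians were -0.04 on plate 1 and -0.15 on plate 2. Within them the chaperone genes Hsp83 (-0.80 and -0.35) and Hsc70-4 (-0.45 and -0.35) were lower and the small heat shock gene Hsp26 was higher (0.59 and 0.82), at 2792 and 1850 CPM on plate 1.

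**Figure D5:**
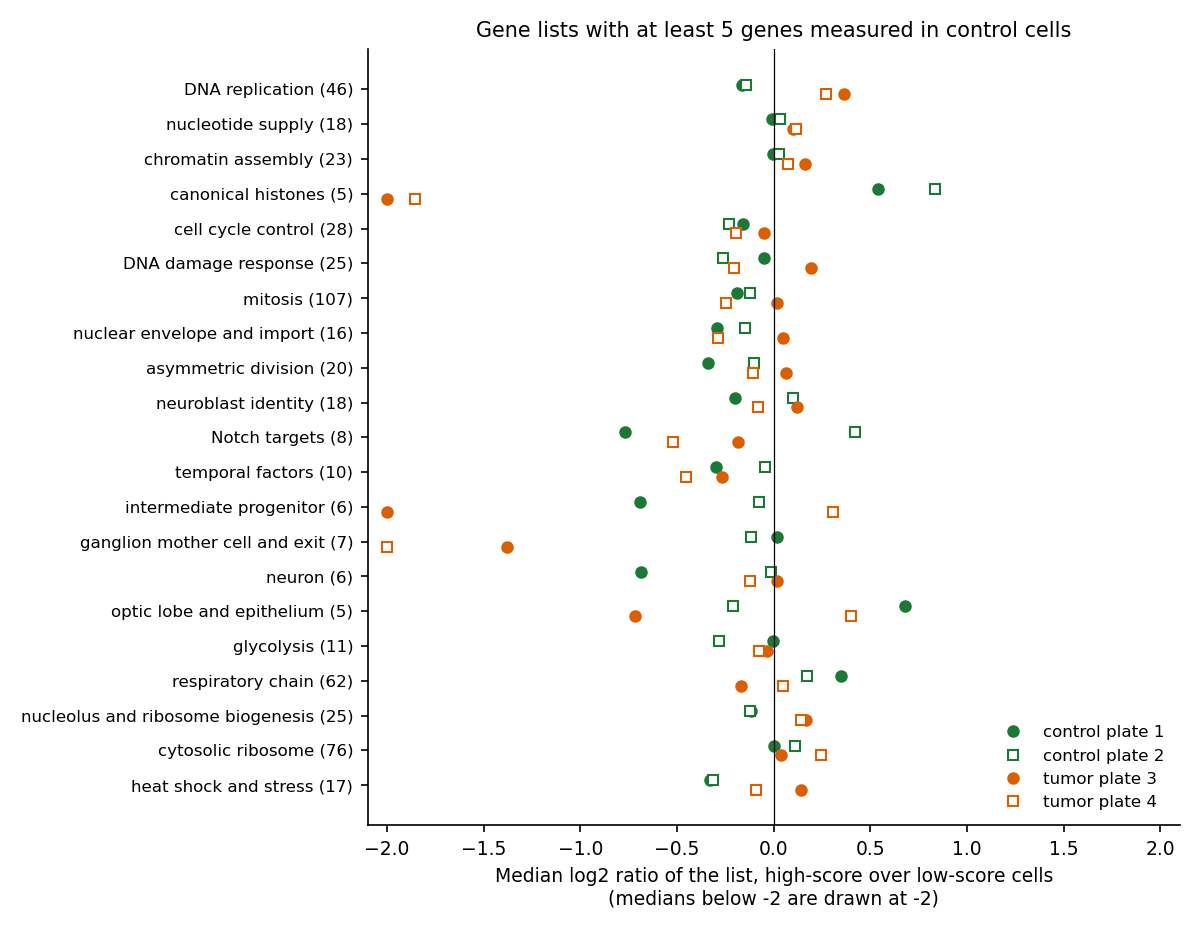
Median log2 ratio of each gene list with at least 5 genes measured in control cells (number in brackets) on control plates 1 and 2 (green) and, with the same score and grouping, on tumor plates 3 and 4 (orange). Replication genes lie at -0.17 and -0.14 on the control plates and at 0.37 and 0.27 on the tumor plates.

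Summed levels of neuron and glia markers were alike in both groups, and defining markers were rare. The summed level of the neuron list was 513 and 517 CPM in high-score and low-score cells of plate 1 and 277 and 262 CPM on plate 2, and that of the glia list 638 and 610, and 503 and 515 CPM. In the glia list the defining factor repo was at 0.067 to 0.154 CPM, and alrm had 0 reads in all 4 pools of cells, which allows up to 0.0659 to 0.0772 CPM. The synaptic gene brp was at 0 to 2.27 CPM. Of 6 measured neuron genes 1 was higher and 3 lower on both plates, of 3 glia genes 1 and 2, and of 5 optic lobe and epithelium genes 2 and 1 (summed level 728 and 607, and 608 and 518 CPM). The hemocyte list summed to 0.48 and 2.33, and 2.50 and 3.04 CPM, the trachea and muscle list to 8.36 and 6.85, and 10.8 and 13.3 CPM, and neither had a measured gene.

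Summed levels of progenitor and daughter-cell markers were lower in high-score than in low-score cells on both plates, by little for the last 2 lists on plate 2. The intermediate progenitor list summed to 427 and 603 CPM on plate 1 and 700 and 899 CPM on plate 2, with 0 of 6 genes higher and 4 lower. Less the median of genes of like length its medians were -0.29 on plate 1 and 0.16 on plate 2. The ganglion mother cell and exit list summed to 634 and 702 CPM and to 647 and 684 CPM, with 3 of 7 higher and 3 lower. Its median log2 ratio was 0.02 on plate 1 and -0.12 on plate 2. The median of the genes' means over the 2 plates was 0.36, above the median of either plate, so it shows no shared direction. In this list Hey, a Notch response gene of newborn neurons, was at 165.8 and 0.11 CPM on plate 1, where 1 high-score cell gave 92.8% of the reads. On plate 2 Hey was at 9.45 and 13.2 CPM. The type II list summed to 240 and 280 CPM and to 234 and 250 CPM, and only pnt and tll were measured. In middle cells the type II list summed to 416 and 296 CPM on plates 1 and 2. The ganglion mother cell list summed to 566 and 891 CPM there, so neither had the middle group between the ends. Cells with 5 or more reads for 3 or more of the type II genes pnt, btd, Sp1 and tll numbered 8, of which 3 were high-score and 1 low-score on plate 2, and 0 and 1 on plate 1. In pooled cells, more cells that express a gene and more RNA per cell cannot be told apart.

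Of the 9 genes at least 2-fold higher on both plates, 4 also passed in the mean over cells with a read in at least 25% of high-score cells. Fh (chromosome X, 9148080 to 9149071 in BDGP6) encodes frataxin, a protein of iron-sulfur cluster assembly. It was at 44.9 and 17.8 CPM on plate 1 and 31.5 and 13.6 CPM on plate 2. Its single-cell medians were 6.07 and 7.60 CPM on plate 1 and 20.4 and 13.6 CPM on plate 2, so on plate 1 the difference lay in the upper cells. Blos3, of a complex that builds lysosome-related organelles, was at 99.8 and 38.4 CPM and at 81.7 and 36.1 CPM, but 1 high-score cell gave 50.6% of its plate 2 reads, and its exons overlap Rad9 on the other strand. In cag 1 cell gave 53.6% of the high-score reads of plate 2, and in the histone copy His2B:CG33870 64.2%.

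Of the 31 lower genes 18 passed the same checks, and those described here are among the 15 with the largest ratios. Myo31DF (chromosome 2L, 10491814 to 10506779 in BDGP6), the myosin that sets left-right asymmetry in flies, was at 11.1 and 34.1 CPM on plate 1 and 12.2 and 29.4 CPM on plate 2, and had a read in 41.4% and 65.5% of cells on plate 1 and 66.7% and 86.7% on plate 2. The katanin-like gene kat-60L1 had -1.57 and -1.45 (its exons overlap Hat1 on the other strand), and the Notch regulator dx had -1.92 and -1.25. The repair endonuclease gene mus201 had -1.38 and -1.19, and the autophagy gene Atg18b had -1.30 and -1.21. Others were ckn, CG12496, Lmpt, CG6231, CG13933, Cpes, crm, eEF1alpha2 and GNBP3, and for eEF1alpha2 1 low-score cell gave 94.5% of the plate 1 reads. Exonic lengths of these genes ran from 1531 bases (GNBP3) to 12091 bases (Lmpt).

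The middle group was not used in the ratio between the ends. A graded gene would have the middle group between the ends on both plates, which held for 1288 of 5864 genes (21.96%), for 2 of the 9 higher genes and for 14 of the 31 lower genes (45.2%). A wide gap between the ends leaves more room for the middle group, so these shares are a description only. Blos3 did not grade, with 34.05 CPM in middle cells of plate 2 against 36.15 CPM in low-score cells, and fh did, with 24.2 and 16.98 CPM in middle cells.

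The same score was applied to tumor cells, which its rule did not use, but it made unlike groups there. The S side had medians of 7.36 in high-score and 3.62 in low-score cells of plate 3, and 7.06 and 4.15 on plate 4. In control cells it had 10.06 and 9.52 on plate 1, and 9.48 and 9.32 on plate 2. The tumor score followed the S side with a rho of 0.599 and 0.577, and the G2/M side with -0.359 and -0.415. Tumor and control ratios are thus not like for like. With 93 and 92 tumor cells ranked the same way, 44 of 5891 genes passed 2-fold upward on both tumor plates (0.747%) and 65 downward (1.10%), and across genes the 2 plates' ratios had a rho of -0.012. There the replication list had medians of 0.37 on plate 3 and 0.27 on plate 4, against 0.02 and -0.03 over all measured genes. Of its 44 genes 21 were higher and 1 lower on both plates. The share of all tumor genes higher or lower at any size on both plates was not counted, so these counts have no baseline. Mcm2 had 0.10 and 0.21 there, and PolE1 2.58 and 0.37, against -0.67 and -0.86 in control cells. The 2 sides of the score were again high together over cells (rho 0.421 and 0.436). Of the 9 higher control genes 7 were measured in tumor cells, where 2 were higher and 3 lower on both plates. Of the 31 lower control genes 19 were measured there, and 4 were higher and 5 lower on both. These counts also lack the share over all tumor genes, so they are a description and show nothing particular to these genes. Tumor cells differ from control cells in pool and plate as well as genotype, and these cannot be told apart.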

How the data were processed

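The authors deposited a count table of whole reads, not normalized, with 14219 features in rows and 384 cells in columns. Cells were sorted singly and amplified by SMART-Seq2 without molecular identifiers, per the labels' protocols, so reads include PCR copies and intervals cover counting error only. Builds, per the submitters' processing notes, are BDGP6 and dm6. The aligner, the counter and whether strand was used: not given in the sources used here. Plates were read from blocks of library names in the labels, over which the same 96 index pairs repeat. Of the features 13702 matched a symbol and held 95.2% of control reads. List symbols that matched no feature are not analysed here (48 of 67 replication names and 113 of 128 mitosis names matched). Gene positions, exon overlaps and lengths are those of Ensembl release 115.

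The cells, lists and rules were chosen with earlier results of these data known. Cells with under 100000 reads or 1000 genes were left out (12 control wells). No doublet caller was run, since cells were sorted singly, and 0 pairs of cells had identical counts. Kept control cells held 126882 to 2329488 reads. Reads were summed per score group and plate (38835786 to 47108398 reads) and given as CPM, with exact Poisson intervals at 95%, and a pool at 0 reads was set to 3 reads. For genes at equal depth, cells were thinned to 100000 reads. Called genes were at least 2-fold apart in the same direction on both plates, among genes with a mean of at least 10 CPM. Extremes were named, up to 15 per direction, if the mean over cells also passed and at least 25% of cells of the higher group had a read, and 1 gene that the rule names is not reported here. List members were named by the smaller of the plate ratios (up to 6 per list, 8 for replication and per mitosis role), plus the markers and any member of the lists of cell types, identity, asymmetric division and cell cycle control. Of 27 lists, each is reported once. The steps were tested on simulated reads. Alternatives covered weighting, thinning, scaling, cell filters, group size, each score gene and each plate. Python 3.11.15, numpy 2.4.6, pandas 2.3.3, scipy 1.17.1, matplotlib 3.10.9, R 4.3.3 and edgeR 4.0.16 (TMM only) were used.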

Additional observations from a re-analysis of the deposited data

Results flagged for a closer look

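Lists were noted where all of the control plates and all of the tumor plates gave medians of opposite sign under the same score, and none of these differences was tested. The DNA replication list had a median log2 ratio of high-score over low-score cells of -0.17 in control cells and 0.21 in tumor cells. Canonical histones had 0.47 over 5 genes in control cells and -2.84 over 3 genes in tumor cells. The sum over all 31 canonical histone IDs differed less, at 1220 and 2462 CPM on plate 3 and 224 and 371 CPM on plate 4, log2 ratios of -1.01 and -0.73, against -0.03 and 1.29 on control plates 1 and 2, so the sums had no opposite sign on plate 1. Mitochondrially encoded genes had 0.14 over 4 genes in control cells (0.02 on plate 1) and -0.24 over 6 in tumor cells. Nucleolus and ribosome biogenesis genes had -0.10 and 0.16. Over all measured genes the medians were -0.09 in control and -0.01 in tumor cells, so the control nucleolus value lay next to that of all genes. Across genes the ratios of the 2 tumor plates had a Spearman rho of -0.012. Each group is 1 pool on its own plates, so pool, plate and genotype cannot be told apart. The S side lay further apart between high-score and low-score cells in tumor than in control, so the 2 contrasts are not like for like.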

How the results depend on the processing

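The replication list's median of -0.17 was -0.21 with cells weighted equally, -0.29 as the median over cells (all genes -0.34), -0.18 with thinned cells, -0.07 with TMM (all genes 0.00), -0.13 with a minimum of 50 CPM, -0.26 with groups of 25% of cells and -0.07 with groups of 50%. With other scores it was -0.15 (thinned), -0.11 (ranks), -0.08, -0.26, -0.10, -0.12 and -0.11 (without PCNA, RnrS, stg, CycB and CycB3), 0.21 (S side alone), -0.38 (G2/M side alone) and -0.12 (adjusted for genes detected). It was -0.14 without the wells of most genes, -0.14 without plate 1, and -0.11 less the median of like lengths. The mitosis list's median of -0.18 was -0.42 as the median over cells, -0.09 with TMM, -0.26 with groups of 25% of cells, -0.08 with groups of 50%, -0.11 without PCNA, -0.24 without RnrS, -0.12 with at least 500000 reads and 3000 genes, -0.12 without plate 1, -0.04 and -0.25 with the S and G2/M side alone, and 0.02 less the median of like lengths.

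As a share of measured genes, those at least 2-fold higher on both plates (0.153%, 9 genes) were 0.239% with cells weighted equally, 0.0512% as the median over cells, 0.342% thinned, 1.90% with no minimum, 0.0313% at 50 CPM and 0.391% with groups of 25%. They were 0.0510%, 0.358%, 0.0685% and 0.272% without RnrS, stg, CycB3 and aurA, 1.06% without plate 1, 2.52% without plate 2, 0.801% with the G2/M side alone and 0.938% at 1.5-fold. Those at least 2-fold lower (0.529%, 31 genes) were 8.13% as the median over cells, 0.888% thinned, 4.18% with no minimum, 0.0939% at 50 CPM, 1.48% with groups of 25%, 0.171% with groups of 50% and 0.918% without RnrS. They were 0.307% with at least 500000 reads and 3000 genes, 1.81% without plate 1, 7.09% without plate 2, 0.835% with the S side alone, 0.205% adjusted for genes detected and 3.50% at 1.5-fold. The cause of these changes was not tested, other than that fewer plates, cells or genes were used where stated.

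Of 475 values of the 19 extreme genes over 25 settings, 464 kept their direction. Part of this was fixed in advance. Changing the minimum level leaves the ratio of a gene as it was. Leaving out either plate cannot reverse genes chosen for the same direction on both plates. The log2 ratio of His2B:CG33870 was 0.00 as the median over cells and -0.07 adjusted for genes detected. For cag it was -1.27 as the median over cells, -0.22 without RnrS and -0.58 with the S side alone. With the S side alone fh had -0.33, CG12496 0.39 and Cpes 0.10, and with the G2/M side alone ckn had 0.31, eEF1alpha2 1.13 and GNBP3 0.28. Rankings by 1 side, the adjustment for genes detected, the 1.5-fold limit and the correction for length were chosen after seeing the data. No paired analysis was possible because each genotype is 1 pool and the comparison is between cells of that pool, with no test. Depth limits single-cell values of genes of about 10 CPM.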
